A study of Mus musculus with 6 samples.

Results

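The genes described here encode the respiratory chain, its ATP synthase and some of their assembly factors. They are the protein-coding genes of the deposited table whose symbols begin with mt-, Nduf, Sdha to Sdhd, Uqcr, Cox4 to Cox8 or Atp5. That rule gave 111 of the 54532 genes in the table, 13 encoded by mitochondrial DNA and 98 encoded in the nucleus. By symbol, the nuclear genes comprise 36 for complex I, 4 for complex II, 8 for complex III, 20 for complex IV, 17 for ATP synthase (complex V), and 13 for assembly factors and related proteins. Ndufa4 and Ndufa4l2, although named for complex I, are counted with complex IV, where the Ndufa4 protein resides.

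Complex I takes electrons from NADH and complex II takes them from succinate, and both hand them to ubiquinone. Complex III passes them to cytochrome c and complex IV to oxygen, while complexes I, III and IV pump the protons that drive ATP synthase. Complexes I, III, IV and V are built from subunits of both genomes, and complex II from nuclear genes alone. Mitochondrial genes are transcribed as long precursors by a polymerase of their own, apart from the nuclear genes that serve the same complexes. In the embryonic pancreas these complexes supply ATP to proliferating progenitors, and in mature beta cells they couple glucose breakdown to insulin release.

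Pancreatic buds from E12.5 mouse embryos were cultured for 2 days in M199 medium with 10% fetal bovine serum and 0.1% DMSO. TBZ buds (3 libraries) received 0.1 µM tetrabenazine (TBZ), an inhibitor of the vesicular monoamine transporter VMAT2, and Control buds (3 libraries) received the DMSO that all buds shared. The groups follow the sample titles and treatment labels, since the treatment protocol on all 6 samples carries the same text, which names TBZ. The stated interest of the study was monoamine transport by VMAT2 in the developing pancreas. A bud explant holds epithelium, mesenchyme, vessels and blood together, so fewer cells of a type and less RNA per cell cannot be told apart in these values.

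The tissue label was checked against markers, and no listed cell type marker was at 0 in every library. Striated muscle markers were the lowest, summing to 12.1 CPM (counts scaled to library size) or below. The libraries held 35825033 to 40973254 counts in TBZ and 41005819 to 50620936 in Control. Called means an adjusted p under 0.05, by edgeR unless DESeq2 is named. Acinar markers, with digestive enzymes among them, had 5 of 7 genes called by edgeR and 6 by DESeq2, all higher in TBZ, among them Pnliprp1 (log2 fold change 0.90 ± 0.07, edgeR adjusted p = 0.00333) and Bhlha15 (0.50 ± 0.05, edgeR adjusted p = 0.00632), and they summed to 6947 to 8462 CPM in TBZ and 4557 to 5500 CPM in Control. Of 8 pancreatic epithelium markers 7 lay above 0 with none called by edgeR and 3 by DESeq2, with Cdh1 at 0.27 ± 0.05 and Nkx6-1 at 0.46 ± 0.09 (edgeR adjusted p = 0.0759 and 0.0943), and they summed to 1904 to 2110 CPM in TBZ and 1700 to 1828 CPM in Control. Of the stomach and oesophagus markers, Pitx1 and Sox2 stood apart in Control replicate 3. There Pitx1 had 47.7 CPM and Sox2 12.7 CPM, against at most 7.24 and 2.35 CPM in the other 5 libraries. Without Control replicate 3 the log2 fold change of Pitx1 was -0.90, against -2.56 with it, and that of Sox2 -1.33, against -2.62. The other tested markers of this list did not move alike. Barx1 went from -0.31 to -0.28 without Control replicate 3, Cldn18 from -0.29 to -0.42 and Trp63 from -0.25 to 0.26. The part of these markers in the respiratory chain values was not tested.

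Of the 111 genes, 106 passed the filter on low counts, including all 13 mitochondrial genes and 93 nuclear ones. The edgeR quasi-likelihood test with Benjamini-Hochberg adjustment called none of the 106 at an adjusted p under 0.05, against 0.187% of the 18226 genes tested (0.154% higher and 0.0329% lower in TBZ). The lowest adjusted p among them was 0.299, for Cox7a1. At an unadjusted p under 0.05 there were 7 of the 106 genes, or 5 mitochondrial genes lower in TBZ, Cox7a1 higher and Cox6b2 lower, against 9.61% of all genes tested (4.54% lower and 5.08% higher in TBZ). DESeq2 called 0 members as well, against 222 of the 15527 genes to which it gave an adjusted p (1.43%). The authors' deposited table, with values next to those of DESeq2 here, is not a separate check. It gives an adjusted p for 109 members, of which 0 were under 0.05, against 222 of its 28930 genes (0.767%). The lowest adjusted p of a member in the authors' deposited table was 0.102, for Cox6b2. With no filter on low counts, edgeR called 5 of 109 members, mt-Nd1, mt-Nd2, mt-Co2, mt-Atp6 and Cox6b2, all lower in TBZ, against 445 of 31250 genes in the whole table (1.42%).

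Mitochondrial and nuclear genes lay differently around 0. Of the 13 mitochondrial genes, 12 had a log2 fold change (TBZ over Control) below 0, with a median of -0.20, against 49.9% below 0 over all genes tested and a median of 0.00 there (0.0003). Of the 93 nuclear genes, 54 lay above 0 and 39 below, with a median of 0.01. That nuclear tally turned to 43 above and 50 below without Control replicate 2, and to 44 above and 49 below without TBZ replicate 3. The mitochondrial genes share 1 template and long precursor transcripts, so their 13 directions are not 13 separate observations, and no test was made over the set. Their values were also less precise, with a median SE of 0.10 on the log2 scale, against 0.05 for the nuclear genes.

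**Figure D1:**
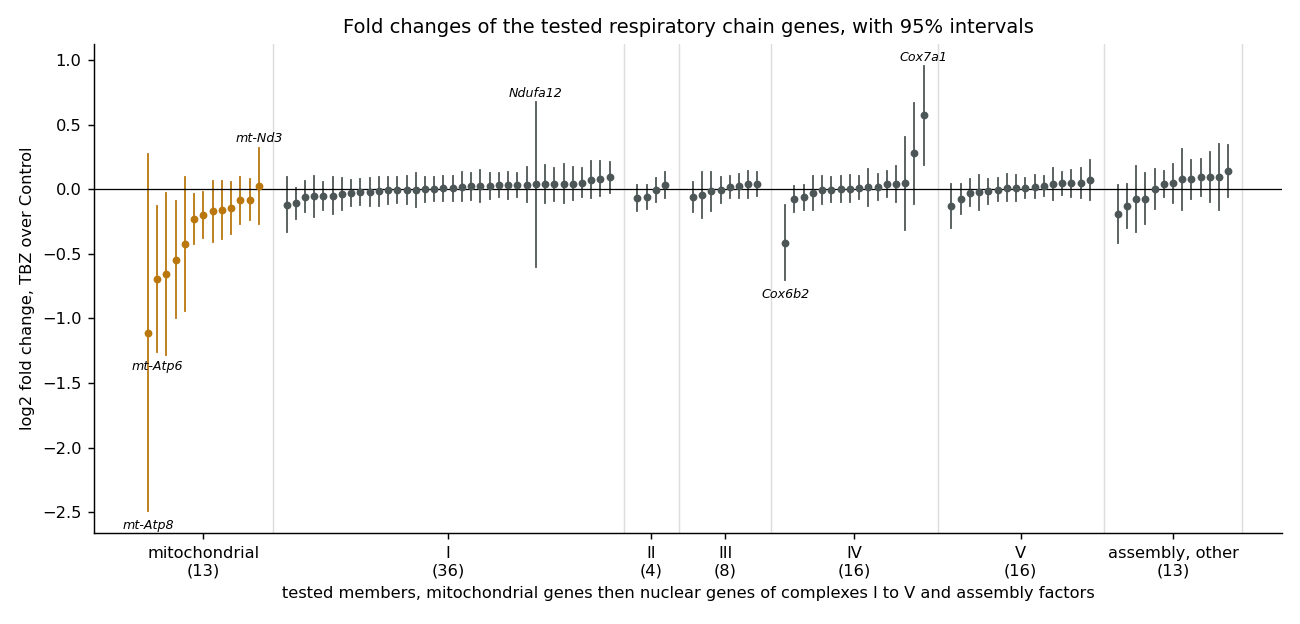
Log2 fold change of TBZ over Control (y axis) of the 106 tested genes, ordered within the mitochondrial set, each nuclear complex and the assembly factors, with 95% intervals as vertical lines. The mitochondrial genes lie below 0 apart from mt-Nd3, while the nuclear genes straddle 0 with shorter intervals, apart from genes such as Ndufa12, Cox6b2 and Cox7a1.

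Among the mitochondrial genes, 7 had a mean level of at least 100 FPKM (counts scaled to gene length and library size). The highest was mt-Co1, the catalytic subunit of complex IV, at 1403, 1630 and 1778 FPKM in the TBZ libraries, against 1880, 1578 and 1868 FPKM in the Control libraries. mt-Cytb, the cytochrome b of complex III, stood at 1016, 1155 and 1255 FPKM in TBZ, against 1367, 1082 and 1413 FPKM in Control. In both genes TBZ replicate 1 was the lowest library and Control replicate 2 lay within the TBZ range, so the groups overlapped. The log2 fold changes were -0.15 ± 0.09 (SE) for mt-Co1 and -0.17 ± 0.10 for mt-Cytb, with edgeR adjusted p-values of 0.65 and 0.642.

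mt-Nd1, a membrane subunit of complex I beside the ubiquinone site, had 1106, 1199 and 1231 FPKM in TBZ, against 1312, 1245 and 1600 FPKM in Control. It was the only mitochondrial gene whose groups did not overlap, where 15.5% of all tested genes did not overlap, 7.03% with TBZ lower and 8.47% with TBZ higher. Its log2 fold change was -0.23 ± 0.09, with an unadjusted p of 0.0241 and an adjusted p of 0.432 by edgeR. mt-Nd2, another membrane subunit, had 605, 663 and 683 FPKM in TBZ, against 750, 664 and 833 FPKM in Control. Its highest TBZ library lay above its lowest Control library, and its log2 fold change was -0.20 ± 0.08 (edgeR unadjusted p = 0.0304, adjusted p = 0.459). Without Control replicate 3 the log2 fold changes were -0.11 for mt-Nd1 and -0.12 for mt-Nd2.

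The other complex I genes at this level lay nearer to 0. mt-Nd4 averaged 341 ± 41.9 FPKM in TBZ and 381 ± 42.0 FPKM in Control (SD, n = 3 each). Its log2 fold change was -0.16 ± 0.10. mt-Nd5 averaged 538 ± 42.1 FPKM in TBZ and 571 ± 59.5 FPKM in Control, a log2 fold change of -0.09 ± 0.08. Both encode proton-pumping subunits, and in both the difference was no larger than the SD in either group. mt-Nd6, the gene on the other strand of mitochondrial DNA from the remaining 12, averaged 474 ± 27.2 FPKM in TBZ and 501 ± 47.7 FPKM in Control. Its log2 fold change of -0.08 ± 0.07 had a 95% interval from -0.24 to 0.08, and mt-Nd6 was the only mitochondrial gene whose interval lay within 0.25 of 0, as the intervals of 42.8% of all tested genes did.

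The libraries did not contribute evenly. In all 7 genes of at least 100 FPKM the lowest value was in TBZ replicate 1, and the highest was in Control replicate 3 for 4 genes and in Control replicate 1 for 3. TBZ replicates 2 and 3 were never the lowest or the highest of the 6 libraries in these genes. Without TBZ replicate 1 the median log2 fold change of the 13 genes was -0.15, and without Control replicate 3 it was -0.11, the value nearest to 0 among the 6 fits that each left out a library. Among single genes, mt-Co1 moved between -0.23, without TBZ replicate 3, and -0.06, without TBZ replicate 1. mt-Cytb moved between -0.28, without Control replicate 2, and -0.10, without TBZ replicate 1 or Control replicate 3. The number of mitochondrial genes below 0 was 12 or 13 of 13 in each of these fits.

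**Figure D2:**
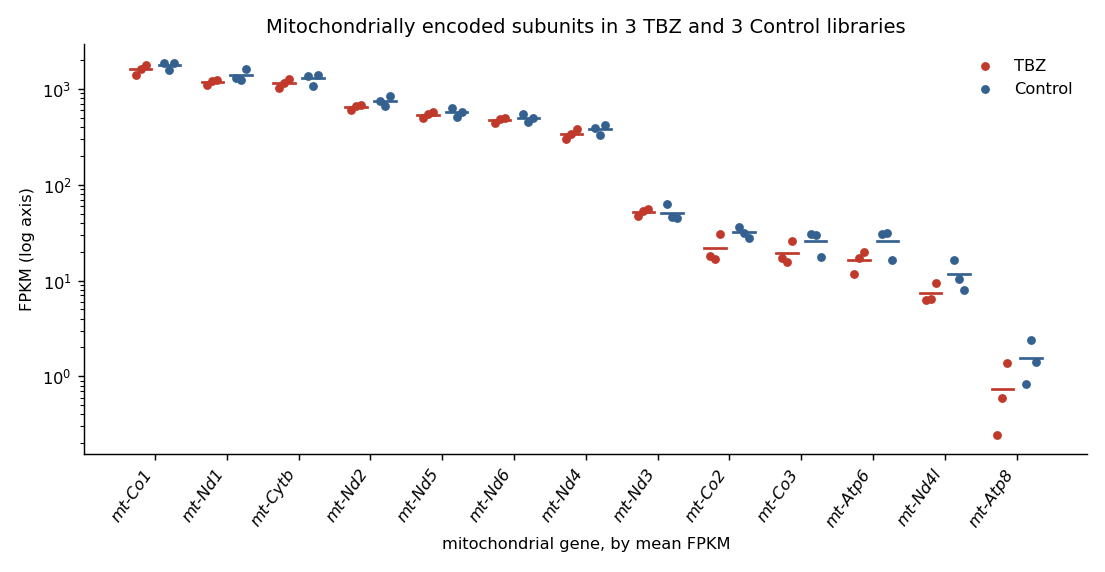
FPKM of the 13 mitochondrial genes on a log axis, in order of mean level, with each library a point and each group mean a line (TBZ red, Control blue). The genes split into 7 at 361 to 1689 FPKM, where the groups lie close together, 5 at 9.49 to 51.6 FPKM, and mt-Atp8 at 1.14 FPKM, where the libraries of each group spread widely.

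The other 6 mitochondrial genes were far lower in FPKM, and 5 of them have a near-identical copy among annotated nuclear transcripts. In GENCODE M21 (GRCm38, the mm10 assembly) a block on chromosome 1 holds the unprocessed pseudogenes Gm28661, Gm10925, Gm28437, Gm28438, Gm10222 and Gm28439, copies of mt-Co2, mt-Atp6, mt-Co3, mt-Nd3, mt-Nd4l and part of mt-Nd4. These copies span chr1:24611535-24615565 on the minus strand. A further unprocessed pseudogene, Gm29216, follows at chr1:24615706-24616197 on the same strand, and was not the best match of any of the mitochondrial genes. The aligned parts of mt-Co2, mt-Atp6, mt-Co3, mt-Nd4l and mt-Nd4 are 100% identical to the copy, and mt-Nd3 is 99.71% identical. The first 110 bases of mt-Co2 (chrM:7013-7122, plus strand) and of its copy (chr1:24615456-24615565, minus strand) are shown because every base is the same, so these letters do not tell the gene from its copy.
mt-Co2: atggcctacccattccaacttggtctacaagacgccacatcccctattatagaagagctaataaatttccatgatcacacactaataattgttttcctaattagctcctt
Gm28661: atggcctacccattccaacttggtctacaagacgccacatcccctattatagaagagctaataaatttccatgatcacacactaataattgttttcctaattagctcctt

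The first 110 bases of mt-Nd3 (chrM:9459-9568, plus strand) and of Gm28438 (chr1:24613010-24613119, minus strand) differ at the single base in capitals. Counted from 1 at the first base of mt-Nd3, with the mitochondrial base first, the difference is T3C, and it is the only mismatch in the 345 aligned bases.
mt-Nd3: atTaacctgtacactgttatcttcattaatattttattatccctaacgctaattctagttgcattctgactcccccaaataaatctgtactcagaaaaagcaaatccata
Gm28438: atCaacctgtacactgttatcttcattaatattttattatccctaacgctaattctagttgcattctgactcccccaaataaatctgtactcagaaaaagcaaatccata

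For mt-Cytb the best match among annotated nuclear transcripts was Gm11410 on chromosome 4, at 92.9% identity. Bases 2 to 111 of mt-Cytb (chrM:14146-14255, plus strand) and the matching stretch of Gm11410 (chr4:80003990-80004099, plus strand) differ at 6 places, in capitals, and no window of 150 bases is shared over the whole gene.
mt-Cytb: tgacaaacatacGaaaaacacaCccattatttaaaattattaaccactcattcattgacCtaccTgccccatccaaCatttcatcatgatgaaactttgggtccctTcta
Gm11410: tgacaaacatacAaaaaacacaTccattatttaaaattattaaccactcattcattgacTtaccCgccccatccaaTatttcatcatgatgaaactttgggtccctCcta

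The 5 genes with nearly all of their sequence in an annotated nuclear transcript were lower in FPKM than the 7 genes with less or none of it there. In mt-Nd1, mt-Nd2, mt-Nd5, mt-Nd6 and mt-Cytb no window of 150 bases is shared, and their means ran from 488 to 1282 FPKM. In mt-Co1 23.6% of windows are shared, at 1689 FPKM, and in mt-Nd4 59.2%, at 361 FPKM. In mt-Nd3, mt-Co2, mt-Co3, mt-Atp6 and mt-Nd4l 97.0% to 99.8% of windows are shared, and their means were 51.6, 26.8, 22.8, 21.2 and 9.49 FPKM. mt-Atp8, at 1.14 FPKM, shares no such window but is 204 bases long and overlaps mt-Atp6 at one end. Only annotated transcripts were searched. mt-Atp8 lies between mt-Co2 and mt-Atp6, so a copy of it in unannotated bases between Gm28661 and Gm10925 would have been missed. How the authors' counting treated a read that fits several places is not given in the sources used here. The levels of the 5 genes sharing nearly all windows and of mt-Atp8, mt-Nd4 and mt-Co1 are therefore uncertain.

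**Figure D3:**
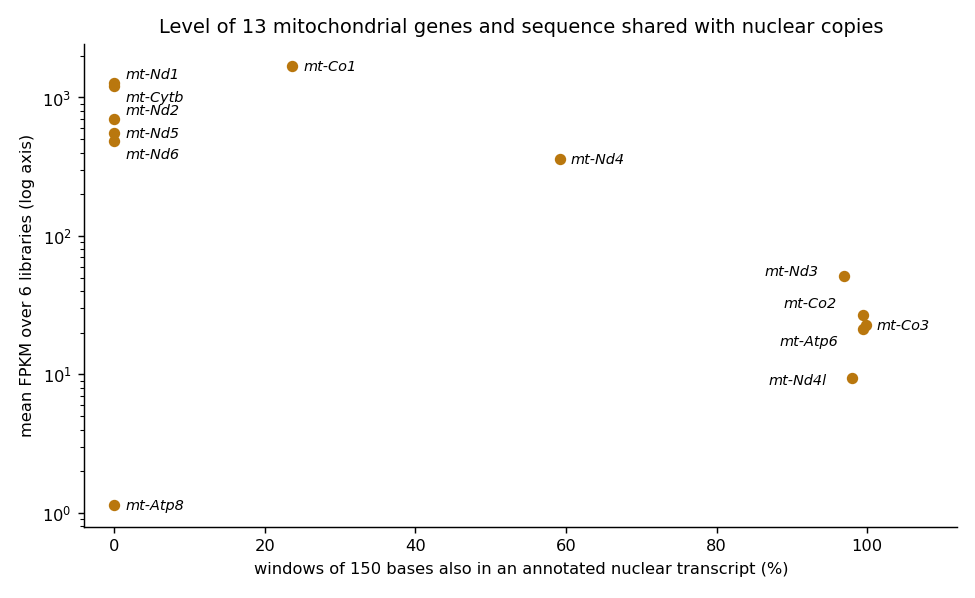
Mean FPKM over 6 libraries (log axis) of each mitochondrial gene against the percentage of its 150-base windows that also occur in an annotated nuclear transcript. The 5 genes near 100% lie between 9.49 and 51.6 FPKM, 7 others at 361 FPKM or more, and mt-Atp8 stands alone at 1.14 FPKM with no shared window.

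The 5 genes with a copy over nearly all of their length had a median log2 fold change of -0.55 and a median SE of 0.23, against -0.16 and 0.09 for the 7 genes of at least 100 FPKM. mt-Co2, which carries the copper centre of complex IV, had 18.1, 16.9 and 30.4 FPKM in TBZ, against 36.0, 31.2 and 28.1 FPKM in Control. mt-Atp6, the proton channel subunit of ATP synthase, had 11.8, 17.1 and 19.7 FPKM in TBZ, against 30.9, 31.2 and 16.3 FPKM in Control. The groups overlapped in each gene, through TBZ replicate 3 in mt-Co2 and through Control replicate 3 in mt-Atp6. The log2 fold changes were -0.55 ± 0.20 for mt-Co2 (edgeR unadjusted p = 0.0232, adjusted p = 0.427) and -0.69 ± 0.25 for mt-Atp6 (unadjusted p = 0.0215, adjusted p = 0.415).

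mt-Co3, a further core subunit of complex IV, averaged 19.5 ± 5.56 FPKM in TBZ and 26.0 ± 7.16 FPKM in Control, a log2 fold change of -0.42 ± 0.23 (adjusted p = 0.603, edgeR). mt-Nd4l, a small membrane subunit of complex I, averaged 7.38 ± 1.74 FPKM in TBZ and 11.6 ± 4.41 FPKM in Control, a log2 fold change of -0.66 ± 0.28 (adjusted p = 0.495, edgeR). mt-Nd3, also of complex I, had 52.1 ± 4.11 FPKM in TBZ and 51.1 ± 10.1 FPKM in Control, a log2 fold change of 0.03 ± 0.13. It was the only mitochondrial gene above 0, and it lay below 0 without TBZ replicate 3, Control replicate 2 or Control replicate 3. mt-Atp8, a stator subunit of ATP synthase, rested on 2, 5 and 10 counts in TBZ and 8, 25 and 12 counts in Control, and its 95% interval ran from -2.49 to 0.27.

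The counts of each pair were split between the mitochondrial gene and its copy in proportions that differed by pair. Gm10925 held 49.5% to 57.2% of the counts of its pair with mt-Atp6 in the TBZ libraries and 50.3% to 56.2% in the Control libraries, and Gm28439 held 0.595% to 0.858% of the pair with mt-Nd4 in TBZ and 0.712% to 1.06% in Control. Gm28438 stood out in a single library, with 893 counts and 57.1% of its pair with mt-Nd3 in TBZ replicate 1, against 71 and 73 counts in TBZ replicates 2 and 3 and 54 to 155 counts in Control. With the counts of each copy added to its mitochondrial gene, an alternative chosen after the data were seen, the log2 fold change was -0.42 for mt-Co2, -0.66 for mt-Atp6, -0.50 for mt-Co3, -0.59 for mt-Nd4l and 0.41 for mt-Nd3. None of these pairs was called, the lowest edgeR adjusted p being 0.337, for mt-Atp6. Over the 5 genes with no shared window and at least 100 FPKM, likewise chosen after the data were seen, the median log2 fold change was -0.17, with all 5 below 0.

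Summed over the 13 genes, mitochondrial transcripts took 0.655%, 0.741% and 0.799% of all counts in the TBZ libraries, against 0.857%, 0.730% and 0.904% in the Control libraries. Control replicate 2 lay within the TBZ range, so the groups overlapped, with means of 0.732 ± 0.0726% in TBZ and 0.830 ± 0.0899% in Control. The 98 nuclear genes took 0.960%, 0.962% and 0.974% in TBZ, against 0.977%, 0.948% and 0.991% in Control, and the Control libraries enclosed the TBZ range. The log2 ratio of mitochondrial to nuclear counts was -0.55, -0.38 and -0.28 in TBZ, against -0.19, -0.38 and -0.13 in Control. TBZ replicate 2 and Control replicate 2 had nearly the same ratio, and the difference of the means, -0.17, was close to the SD within each group (0.14 in TBZ and 0.13 in Control). Leaving out each library in turn moved that difference between -0.24, without Control replicate 2, and -0.10, without TBZ replicate 1, and it was -0.12 without Control replicate 3.

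**Figure D4:**
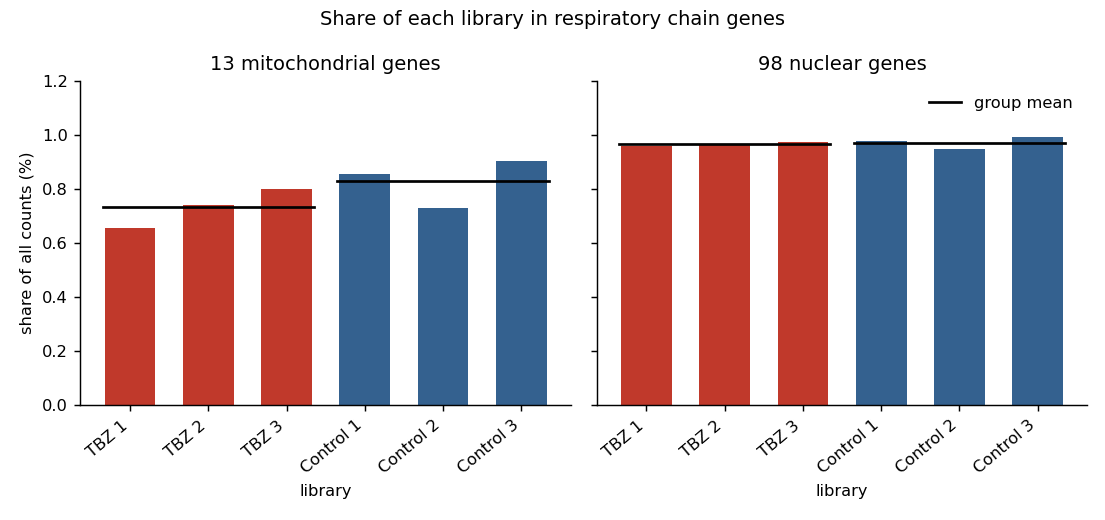
Share of all counts in each library from the 13 mitochondrial genes (left) and the 98 nuclear genes (right), as bars from 0 with black lines at the group means. The mitochondrial share runs from 0.655% to 0.799% in TBZ and from 0.730% to 0.904% in Control, and the nuclear share lies between 0.948% and 0.991% in all 6 libraries.

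The nuclear genes of complex I were the largest set. Of 36 genes, 20 lay above 0 and 16 below, with a median log2 fold change of 0.01, and the 95% intervals of 34 lay within 0.25 of 0. The highest level was that of Ndufb11, a membrane-arm subunit, at 108 ± 1.89 FPKM in TBZ and 105 ± 7.97 FPKM in Control. The 2 smallest p-values belonged to Ndufs7 and Ndufb8, with edgeR adjusted p-values of 0.558 and 0.621. Ndufs7, which holds the iron-sulfur cluster that reduces ubiquinone, had 26.6, 27.3 and 28.3 FPKM in TBZ, against 29.7, 27.9 and 31.0 FPKM in Control, a log2 fold change of -0.11 ± 0.05. Ndufb8, another membrane-arm subunit, had 16.0, 15.8 and 17.6 FPKM in TBZ, against 15.5, 15.4 and 15.4 FPKM in Control, and every TBZ library lay above every Control library.

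The exceptions in complex I were Ndufb2 and Ndufa12. Ndufb2, the lowest of the set at 1.91 ± 0.169 FPKM in TBZ and 2.08 ± 0.123 FPKM in Control, had the log2 fold change farthest from 0, at -0.12 ± 0.09. Ndufa12, an accessory subunit of the peripheral arm, varied most between libraries, with 1044, 886 and 1444 counts in TBZ and 1031, 2122 and 899 counts in Control. Its high libraries were TBZ replicate 3 and Control replicate 2, and its log2 fold change of 0.04 had a 95% interval from -0.60 to 0.68.

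The 4 genes of complex II, which is also the succinate dehydrogenase of the citric acid cycle, all had 95% intervals within 0.25 of 0. Sdhb, the iron-sulfur subunit, had 39.8, 40.7 and 39.5 FPKM in TBZ, against 41.1, 41.2 and 43.1 FPKM in Control. Its groups did not overlap, and the log2 fold change was -0.06 ± 0.04 (adjusted p = 0.667, edgeR). Sdhc and Sdhd, the membrane anchors, had log2 fold changes of -0.07 ± 0.04 and 0.00 ± 0.04 (-0.0025), and Sdha, the flavoprotein, averaged 62.6 ± 1.98 FPKM in TBZ and 61.4 ± 2.28 FPKM in Control.

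All 8 nuclear genes of complex III likewise lay within 0.25 of 0 over their 95% intervals, 4 on either side of 0. Uqcr10, a small subunit, was the highest at 117 ± 1.89 FPKM in TBZ and 118 ± 11.7 FPKM in Control. Uqcrfs1, the Rieske iron-sulfur protein, had a log2 fold change of 0.04 ± 0.04, and Uqcrq, a small subunit that contacts cytochrome b, one of -0.06 ± 0.05. Uqcrc1 and Uqcrc2, the core proteins, averaged 52.0 ± 0.472 and 67.4 ± 2.06 FPKM in TBZ, against 51.5 ± 1.09 and 66.2 ± 0.89 FPKM in Control.

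Complex IV held the highest nuclear gene in FPKM and the nuclear fold changes farthest from 0 on either side. Cox8a had 322 ± 5.9 FPKM in TBZ and 321 ± 14.9 FPKM in Control, and a log2 fold change of 0.00 ± 0.05 (0.0046). Among the 20 genes of the set, 16 were tested, 10 above 0 and 6 below, and 12 had intervals within 0.25 of 0. Several complex IV subunits come in alternative forms, most with a form common to all tissues and another known from heart and skeletal muscle, testis or lung. In the buds Cox4i1, Cox6a1, Cox6b1 and Ndufa4, the common forms, each held at least 91.7% of the summed FPKM of their pair in every library.

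Cox7a1, known as the form of heart and skeletal muscle, had the smallest p of all 106 genes. It stood at 7.16, 7.82 and 7.45 FPKM in TBZ (155, 171 and 143 counts), against 5.93, 5.22 and 3.92 FPKM in Control (149, 142 and 88 counts). Every TBZ library lay above every Control library, and Control replicate 3 was the lowest of all. The log2 fold change was 0.57 ± 0.17, with a 95% interval from 0.19 to 0.95, an unadjusted p of 0.00788 and an adjusted p of 0.299 by edgeR. Leaving out each library in turn moved it between 0.43, without Control replicate 3, and 0.70. In the authors' deposited table its log2 fold change was 0.57 with an adjusted p of 0.174. Cox7a1 lies at chr7:30184144-30186078 (mm10), and it made up 2.96%, 3.26% and 2.98% of the summed FPKM of Cox7a1, Cox7a2 and Cox7a2l in TBZ, against 2.36%, 2.12% and 1.65% in Control.

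The other forms of that subunit were far higher and did not pass the test either. Cox7a2, the form of other tissues, averaged 81.4 ± 1.54 FPKM in TBZ and 85.9 ± 3.62 FPKM in Control, a log2 fold change of -0.08 ± 0.05. Cox7a2l, which joins complexes III and IV in supercomplexes, averaged 155 ± 4.07 FPKM in TBZ and 154 ± 2.63 FPKM in Control. Striated muscle markers, set beside Cox7a1 because of its known tissue, summed to 12.1, 8.98 and 7.70 CPM over 7 genes in TBZ and 9.36, 9.56 and 8.97 CPM in Control. Of these markers 4 were tested and 0 called, 2 above 0 and 2 below. Their part in the Cox7a1 difference was not tested.

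Cox6b2, known as the testis form of a subunit at the dimer interface of complex IV, had the second smallest p. It stood at 9.48, 10.7 and 8.63 FPKM in TBZ (425, 486 and 343 counts), against 11.5, 11.8 and 15.3 FPKM in Control (598, 664 and 710 counts). The groups did not overlap, and Control replicate 3 was the highest library. The log2 fold change was -0.41 ± 0.13, with a 95% interval from -0.70 to -0.12, an unadjusted p of 0.0101 and an adjusted p of 0.325 by edgeR. Leaving out each library in turn moved it between -0.50 and -0.27, the value without Control replicate 3. Cox6b2, at chr7:4751792-4753094, made up 5.44%, 6.48% and 4.96% of the summed FPKM of Cox6b1 and Cox6b2 in TBZ, against 6.71%, 6.97% and 8.27% in Control, while Cox6b1, the common form, averaged 162 ± 5.83 FPKM in TBZ and 162 ± 6.44 FPKM in Control.

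The remaining pairs were dominated by the common form in every library. Cox4i1 averaged 176 ± 4.57 FPKM in TBZ and 176 ± 7.41 FPKM in Control, and Cox4i2, the form known from lung and induced by low oxygen, 2.92 ± 0.246 FPKM in TBZ and 2.83 ± 0.249 FPKM in Control, or 1.63% and 1.58% of the pair. Ndufa4l2, a paralog of Ndufa4 also known to be induced by low oxygen, had 3.88, 3.46 and 3.90 FPKM in TBZ, against 3.39, 3.54 and 2.33 FPKM in Control. Control replicate 3 was again the lowest library, the groups overlapped, and the log2 fold change was 0.28 ± 0.17 (adjusted p = 0.65, edgeR). Without Control replicate 3 it was 0.12. Ndufa4 itself averaged 97.3 ± 2.22 FPKM in TBZ and 96.2 ± 4.23 FPKM in Control.

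Cox6a1 averaged 287 ± 4.16 FPKM in TBZ and 280 ± 11.4 FPKM in Control, while its muscle form Cox6a2 did not pass the filter, with 11 counts over the 3 TBZ libraries and 31 over the 3 Control libraries. Cox7b2 had 1 count in TBZ and 7 in Control, Cox8b 1 in TBZ and 3 in Control, and Cox8c none in either, against 80.0 ± 2.59 FPKM in TBZ and 81.7 ± 6.04 FPKM in Control for Cox7b. Cox5a, Cox5b and Cox6c, which have no second form among these genes, had log2 fold changes of 0.04 ± 0.06, 0.00 ± 0.04 (-0.0021) and -0.06 ± 0.04. The fifth gene without a test was a second Atp5o entry with no counts.

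**Figure D5:**
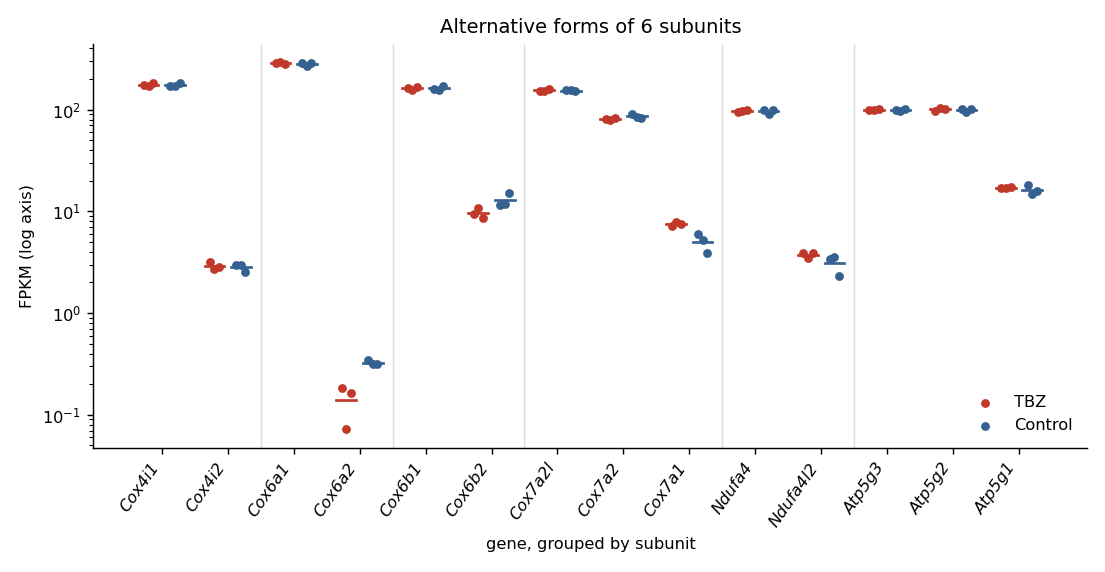
FPKM on a log axis of the alternative forms of 6 subunits, with each library a point and each group mean a line (TBZ red, Control blue). The forms with restricted tissue distribution (Cox4i2, Cox6a2, Cox6b2, Cox7a1, Ndufa4l2) lie at 12.9 FPKM or below in both group means, and the points separate by group in Cox6a2, Cox6b2 and Cox7a1.

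In ATP synthase 16 nuclear genes were tested, 10 above 0 and 6 below, with a median log2 fold change of 0.01, and 15 had intervals within 0.25 of 0. Atp5a1, the alpha subunit of the catalytic head, averaged 314 ± 4.52 FPKM in TBZ and 312 ± 5.19 FPKM in Control, and Atp5b, the catalytic beta subunit, 297 ± 3.28 FPKM in TBZ and 292 ± 4.43 FPKM in Control. The differences nearest to the threshold were those of Atp5k, a membrane subunit that takes part in dimers, and Atp5e, a subunit of the central stalk. Atp5k had 47.9, 49.1 and 48.6 FPKM in TBZ, against 59.4, 52.1 and 48.1 FPKM in Control, with Control replicate 1 the highest and Control replicate 3 inside the TBZ range, and its log2 fold change was -0.13 ± 0.08. Atp5e averaged 56.2 ± 1.99 FPKM in TBZ and 59.3 ± 3.32 FPKM in Control, a log2 fold change of -0.08 ± 0.05. Without Control replicate 1 these values were -0.05 for Atp5k and -0.03 for Atp5e. Atp5f1, a stator subunit, averaged 62.4 ± 0.359 FPKM in TBZ and 60.5 ± 1.71 FPKM in Control, with every TBZ library above every Control library.

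The c subunit, which forms the rotating ring, is encoded by 3 genes for the same mature protein. Atp5g2 and Atp5g3 averaged 101 ± 3.45 and 99.6 ± 0.979 FPKM in TBZ, against 99.9 ± 3.79 and 99.8 ± 2.34 FPKM in Control, and Atp5g1 17.1 ± 0.139 FPKM in TBZ and 16.3 ± 1.73 FPKM in Control. Atp5g1 made up 7.87 ± 0.143% of the summed FPKM of the 3 genes in TBZ and 7.53 ± 0.654% in Control, and none of the 3 was called.

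The 13 assembly factors and related genes were lower in level, from 1.78 to 16.1 FPKM, and their intervals were wider, with 5 of 13 within 0.25 of 0. Of them 9 lay above 0 and 4 below, and none was called. Sdhaf1, which helps to insert iron-sulfur clusters into Sdhb, had 2.12, 2.15 and 2.23 FPKM in TBZ, against 2.58, 2.36 and 2.49 FPKM in Control. Sdhaf4, which binds the flavinated Sdha before it joins Sdhb, had 12.6, 12.9 and 13.7 FPKM in TBZ, against 14.2, 14.2 and 14.4 FPKM in Control. In both genes every TBZ library lay below every Control library. Their log2 fold changes were -0.19 ± 0.10 and -0.13 ± 0.08, with edgeR adjusted p-values of 0.592 and 0.634. Ndufaf8, a complex I assembly factor and the highest of the set, averaged 16.6 ± 1.41 FPKM in TBZ and 15.6 ± 0.703 FPKM in Control. In all, 7 of the 93 tested nuclear genes did not overlap between groups, 4 lower and 3 higher in TBZ, which is 7.53% against 15.5% of all tested genes.

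Levels between genes depended on the gene length behind FPKM. The deposited lengths count all exons, and over the 80 tested nuclear subunits they were a median of 1.65 times the length of the principal transcript in GENCODE M21 and up to 11.8 times, for Atp5l. On the deposited lengths Cox8a was the highest nuclear subunit at 321 FPKM, while on the principal transcript length, an alternative chosen after the data were seen, Atp5b was highest at 651 FPKM and Cox8a stood at 319 FPKM. The fold changes between groups do not depend on this length. Copies of the nuclear genes elsewhere in the nuclear genome were not examined.

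Factors known to act at promoters of nuclear respiratory genes include NRF1, GABP and YY1. A RefSeq promoter (GRCm38.p6, 250 bases before to 50 after the start of the gene) was found for 79 of the 98 nuclear genes. The NRF1 motif of 10 bases, which is its own reverse complement and is printed in capitals in the Cox6a1 sequence below, occurred in 7 of the 79 (8.86%), against 1.07% of 27025 genes. The YY1 motif of 11 bases, on either strand, occurred in 5 (6.33%), against 0.755% of all genes, and the ETS motif CCGGAAGT of GABP in 5 (6.33%), against 4.31%. TATAAA was in 8 (10.1%), against 15.7%, and none of the 4 motifs contains another. Among the 17491 protein-coding genes, the kind the members are, the shares were 1.47% for NRF1, 1.06% for YY1, 5.69% for ETS and 14.8% for TATAAA, so the ETS share of the members lay near that of coding genes. Below are the bases that lie before the annotated gene in the promoter windows of Cox6a1 (chr5:115348982-115349208, minus strand) and Cox7a1 (chr7:30183921-30184143, plus strand), shown as the most abundant gene with an NRF1 match and the gene with the smallest p. Capitals mark a match to any of these 4 motifs. The Cox7a1 stretch holds no match, which says only that these letters are not in this window.
Cox6a1: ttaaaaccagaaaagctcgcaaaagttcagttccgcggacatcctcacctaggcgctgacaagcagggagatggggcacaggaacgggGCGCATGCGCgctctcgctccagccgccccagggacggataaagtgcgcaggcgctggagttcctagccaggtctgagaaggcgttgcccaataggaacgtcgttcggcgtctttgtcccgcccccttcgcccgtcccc
Cox7a1: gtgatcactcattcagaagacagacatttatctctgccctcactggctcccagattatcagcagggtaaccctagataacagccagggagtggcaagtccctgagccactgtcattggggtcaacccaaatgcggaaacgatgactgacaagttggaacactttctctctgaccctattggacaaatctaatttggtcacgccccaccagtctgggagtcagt

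Lists of other mitochondrial genes held no called gene. Of 42 tested electron carriers and assembly factors outside the set, 17 lay above 0 and 25 below, with a median of -0.01 and none called. Cox17, the copper chaperone of complex IV, had the smallest p of these, at 1.83, 1.52 and 1.60 CPM in TBZ (74, 62 and 57 counts), against 2.32, 2.68 and 3.73 CPM in Control (109, 136 and 156 counts). The groups did not overlap, and its log2 fold change was -0.81 ± 0.21, or -0.60 without Control replicate 3 (edgeR unadjusted p = 0.00352, adjusted p = 0.227). Acad9, a complex I assembly factor, had a log2 fold change of 0.10 ± 0.04 (adjusted p = 0.494, edgeR).

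No gene was called among the 19 for mitochondrial DNA maintenance and transcription, of which 8 lay above 0. Polrmt, the mitochondrial RNA polymerase, had a log2 fold change of 0.14 ± 0.06, with every TBZ library above every Control library, and Twnk, the replicative helicase, one of -0.13 ± 0.06. Their edgeR adjusted p-values were 0.475 and 0.545. Of the 17 tested genes for mitochondrial RNA processing and stability 8 lay above 0, and Pnpt1, a polynucleotide phosphorylase, and Tbrg4, an RNA-binding protein, had log2 fold changes of -0.12 ± 0.05 and -0.09 ± 0.04. Both were lower in every TBZ library than in every Control library, with edgeR adjusted p-values of 0.491 and 0.554.

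The 77 tested mitochondrial ribosome genes had 46 above 0 and a median of 0.01, with Mrpl16 at -0.19 ± 0.07 and Mrps35 at 0.13 ± 0.05. Among 11 biogenesis regulators 5 lay above 0. Myc, which drives growth and mitochondrial biogenesis, had a log2 fold change of 0.18 ± 0.05 (adjusted p = 0.267, edgeR). Ppargc1a, the coactivator of respiratory genes, had 105, 188 and 131 counts in TBZ and 239, 211 and 189 counts in Control. Scaled to library size its groups overlapped, and its log2 fold change was -0.34 ± 0.20 (adjusted p = 0.631, edgeR). Of 18 citric acid cycle genes 12 lay above 0, and Suclg1 and Sucla2, subunits of succinyl-CoA synthetase, had log2 fold changes of 0.16 ± 0.04 and 0.12 ± 0.05 with edgeR adjusted p-values of 0.205 and 0.48. Of 9 tested uncoupling and exchange carriers 5 lay above 0, with Ucp2 at 0.05 ± 0.04 and Slc25a3, the phosphate carrier, at -0.04 ± 0.05 (0.01 without Control replicate 3). None of the genes in these 4 lists was called.

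Transcripts of mitochondrial DNA outside the protein-coding genes did not share 1 direction. mt-Rnr1, the small ribosomal RNA, had 63.6, 63.3 and 67.5 CPM in TBZ, against 75.2, 77.0 and 80.6 CPM in Control. Every TBZ library lay below every Control library, with a log2 fold change of -0.26 ± 0.05. The adjusted p of mt-Rnr1 was 0.0844 by edgeR and 0.00417 by DESeq2, and 0.00417 in the authors' deposited table. mt-Rnr2, the large ribosomal RNA encoded next to it, had 113, 137 and 137 CPM in TBZ, against 117, 107 and 110 CPM in Control, a log2 fold change of 0.21 ± 0.08 (adjusted p = 0.404, edgeR). RNA was selected on poly-T beads, so the level of these RNAs is that of the captured molecules. Of the copies, Gm10925 had a log2 fold change of -0.63 ± 0.19. Its adjusted p was 0.303 by edgeR and 0.0173 by DESeq2, and 0.0172 in the authors' deposited table.

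In the other marker lists edgeR called no gene and DESeq2 called 1, the endocrine progenitor factor Neurog3. Of the endocrine markers 6 of 7 lay above 0, with Neurog3 at 0.43 ± 0.09 (adjusted p = 0.124 by edgeR and 0.000334 by DESeq2) and Chga at 0.30 ± 0.12. Mesenchyme markers had 3 of 7 above 0, with Barx1 at -0.31 ± 0.14 and Pdgfra at -0.12 ± 0.07, and mural cell markers 3 of 6, with Rgs5 and Kcnj8 both at -0.14. Barx1 is also on the stomach and oesophagus list and counts in both tallies. Endothelium markers had 5 of 5 above 0, with Flt1 at 0.24 ± 0.09 and Pecam1 at 0.08 ± 0.05. Erythroid markers had 1 of 5 above 0, with Hbb-bt at -0.35 ± 0.13 and Hbb-y at -0.21 ± 0.08, and summed to 266 to 331 CPM in TBZ and 320 to 369 CPM in Control. Stomach and oesophagus markers had 0 of 5 above 0, with Pitx1 at -2.56 ± 0.89 and Sox2 at -2.62 ± 0.73 (-0.90 and -1.33 without Control replicate 3), neural markers 0 of 5, with Elavl4 at -0.24 ± 0.10 (-0.15 without it), and striated muscle markers 2 of 4, with Myh7 at -0.35 ± 0.31 and Myog at 0.24 ± 0.38.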

How the data were processed

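Messenger RNA was selected on poly-T beads and libraries were made with the NEBNext Ultra kit for paired reads, per the labels' protocols. STAR, HTSeq and the mm10 build are listed without versions or settings, per the submitters' processing notes. The deposited count columns hold raw counts per gene and library, per the file headers. The deposited FPKM values were scaled by the authors to gene length and to an effective total of 0.991 to 1.02 times the summed counts. The authors' deposited comparison gives log2 fold changes, p-value columns and a signal per group (mean counts over size factors). Its log2 fold changes lie next to those of DESeq2 here (0.57 in each for Cox7a1). Each put 222 genes under an adjusted p of 0.05, so the deposited comparison and DESeq2 are not separate checks. The tool behind the comparison is not given in the sources used here. Nor is the strand setting, so overlapping genes on opposite strands, mt-Nd5 and mt-Nd6 among them, may share reads.

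The counts of all genes were fitted with edgeR 4.0.16 (R 4.3.3) by quasi-likelihood, scaled by TMM and filtered with filterByExpr, and p-values were adjusted by the Benjamini-Hochberg method. Of 31250 genes with a read, 18226 were tested, at a biological coefficient of variation of 8.3%. Standard errors (SE) were derived from the F statistic and 95% intervals from the t distribution. CPM uses the TMM totals. The procedure was tested on simulated counts, whose known changes were larger than most of those reported here. No label ties replicates to litters or cultures, so a p-value covers the variation among these 6 libraries, which may be technical. Mitochondrial genes were matched to GENCODE M21 nuclear transcripts by blastn and by exact windows of 150 bases.

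Alternatives were DESeq2 1.42.0, other scalings, no filter, limma 3.58.1 on log2(FPKM + 0.5), a replicate block and leaving out each library. The rule for names took all mitochondrial genes, the alternative subunit forms, for each complex the highest gene, the 2 with the smallest p and the 1 with the largest change at a mean of at least 1 FPKM, and the 2 genes with the smallest p of each other list, of which 1 gene is not reported here. Ndufa12, Atp5b, Atp5f1, Sdha, Uqcrc1, Uqcrc2, Atp5l, the nuclear copies and the mitochondrial ribosomal RNAs were chosen after their values were seen. The members, the lists and these rules were chosen with earlier results of these data known.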

Additional observations from a re-analysis of the deposited data

Results flagged for a closer look

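Transcripts of mitochondrial DNA and nuclear copies outside the protein-coding members are given here where they held at least 100 counts over the 6 libraries and their TBZ mean lay above every Control library, as values without a cause. Gm28438, the copy of mt-Nd3, averaged 8.63 CPM in TBZ and 2.39 CPM in Control, through a single library, TBZ replicate 1, at 22.1 CPM, against 1.74 and 2.04 CPM in TBZ replicates 2 and 3. mt-Rnr2 averaged 129 CPM in TBZ and 111 CPM in Control, with TBZ replicate 1 inside the Control range. The transfer RNA genes mt-Tl1, mt-Tn, mt-Tc and mt-Tp averaged 1.30, 5.33, 5.64 and 10.7 CPM in TBZ, against 0.923, 4.58, 4.78 and 9.07 CPM in Control, and of these mt-Tl1 was the one whose groups did not overlap. The edgeR adjusted p-values of these 6 genes ran from 0.404 to 0.676.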

How the results depend on the processing

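No alternative scaling, tool or left-out library gave a called member, and edgeR with no filter on low counts called 5. Over the whole table edgeR called 34 genes, against 222 with DESeq2, 445 with no filter, 14, 13 and 14 with limma on log2(FPKM + 0.5), log2(FPKM + 0.1) and log2(FPKM + 1), and 5 to 36 when each library was left out. limma on log2(FPKM + 0.5) with no filter called 0, with 2135 genes at an unadjusted p under 0.05. With the replicate number as a block 5 genes of the table and 0 members were called. Libraries of the same number did not deviate together (correlations 0.0017, -0.15 and -0.077), and those of unlike number ran from -0.088 to 0.15. These values cannot tell whether libraries of the same number were collected together. The difference in mitochondrial share was -0.0983 percentage points of counts and -0.278 of summed FPKM, and leaving out each library moved the first between -0.148, without Control replicate 2, and -0.0599, without TBZ replicate 1.

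Log2 fold changes near 0 changed sign. Cox4i1 was at -0.00044 with RLE size factors, -0.0016 with no filter and -0.018 with no TMM factor. That last scaling moved the median of all genes to -0.02 and gave -0.0071 for Cox7a2l, -0.015 for Cox8a, -0.0015 for Ndufa4, -0.0078 for Atp5a1 and -0.0086 for Atp5g2, with 41 nuclear genes above 0 and 52 below. Leaving out each library moved mt-Nd3 between -0.058 and 0.20, Ndufb11 between -0.013 and 0.090, Sdhd between -0.026 and 0.017, Uqcr10 between -0.079 and 0.060, Cox4i1 between -0.021 and 0.039, Cox4i2 between -0.027 and 0.094, Cox5a between -0.015 and 0.10, and Cox5b between -0.028 and 0.018. The same step moved Cox6b1 between -0.025 and 0.031, Cox7a2l between -0.013 and 0.026, Cox7b between -0.080 and 0.023, Cox8a between -0.032 and 0.028, Ndufa4 between -0.017 and 0.036, Atp5g2 between -0.019 and 0.037, and Atp5g3 between -0.014 and 0.019. The cause was not tested.

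Each group has 3 libraries, and the 95% intervals of 12 of the 13 mitochondrial genes reach beyond 0.25 on the log2 scale on at least 1 side, so a difference of that size was not separated from 0 in the genes whose intervals include both. The counts behind mt-Atp8, 2 to 25 per library, set its wide interval.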
